A study of Mus musculus with 4 samples.

Results

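The T-box transcription factors are 10 genes (T, Eomes, Tbx1, Tbx2, Tbx3, Tbx4, Tbx5, Tbx6, Tbx18 and Tbx20), taken by name together with every array probe whose RefSeq accession maps to them. They are represented by 14 probes, and 9 of the 10 genes were among the 13926 named genes tested. Their RNA was measured in sorted cells from a mouse embryonic stem (ES) cell culture. The cells were of the line EB5, carried a Venus fluorescent reporter of the trunk homeobox gene Hoxb6, and were differentiated for 6 days on OP9 stromal feeder cells. All RNA came from Flk-1+ cells, sorted on a VEGF receptor whose gene is Kdr. The Flk-1+ Hoxb6-Venus+ fraction (Venus-positive below) was hybridised to 2 single-colour Agilent arrays and the Flk-1+ Hoxb6-Venus- fraction (Venus-negative) to 2 others. Both fractions share the cell line, the reporter, the feeder and the Flk-1 gate, and were separated by reporter fluorescence. The labels name only 1 ES line and do not say whether replicates were separate cultures, so p-values reflect only how far these arrays spread, and that spread may be technical.

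T-box proteins share a DNA-binding domain, named after the mouse gene T (Brachyury), and act as activators or repressors at the same kind of DNA site. Members are switched on in turn as mesoderm forms and is subdivided. T and Eomes are active in the primitive streak, where cells become mesoderm, and Tbx6 is active in the streak and in the presomitic mesoderm that it leaves behind. Tbx1, Tbx2, Tbx3, Tbx4, Tbx5, Tbx18 and Tbx20 act later, in pharyngeal, limb, heart and body wall mesoderm. The comparison asks which of these genes differ between Flk-1+ mesoderm with and without Hoxb6 reporter activity.

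Of the 9 members tested, 1 fell in the Venus-positive cells and 0 rose in limma, after Benjamini-Hochberg adjustment over all features with a threshold of 0.05. The gene that fell is Eomes. A feature is a named gene, represented by its brightest tested probe, or a probe without a gene name. Over all 23548 features 1.36% were called lower and 0.777% higher. Of all features called, 63.6% were lower, or 51.65% when arrays were centred on their median. At an unadjusted p under 0.05, 4 members were lower (T, Eomes, Tbx6 and Tbx20) and 0 higher, against 11.4% of all features lower and 12.3% higher. Members were also counted by overlap: in 7 members both Venus-positive arrays lay below both Venus-negative arrays, and in 1 member, Tbx1, above them. That held for 28.4% of all features in the lower and 29.1% in the higher direction. Tbx20, among the 4 and the 7, and Tbx5, among the 7, entered the test through the Venus-negative arrays alone. With all 4 arrays required to be well above background, 7 members remained, of which 3 were lower and 0 higher at an unadjusted p under 0.05. In that fit 2495 of 21612 features were lower and 2670 higher at the same threshold. With 2 arrays a group the precision is limited: no feature passed when any single array was left out.

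The 3 streak members had log2 changes between -4.91 and -0.73, with a median of -2.92. The 6 later members tested had changes between -2.92 and 1.67, with a median of -0.59, against a median of 0.0029 over all features. Tbx5 and Tbx20 entered the test through the Venus-negative arrays alone, so the filter itself favoured a lower value in Venus-positive cells. With Tbx20 at its bound (-1.29, defined below) the later median stayed at -0.59. That median could not move, since Tbx2 (-0.74) and Tbx3 (-0.43) set it and Tbx20 lay below both either way. Tbx5 had no bound, so the effect of the filter on this median was not tested. T had the smallest change of the 3 streak genes, and Tbx1 had the highest of the later ones. The 250 bases before the start of each streak gene are shown because these genes are known together from the streak and had changes of different size. Sequences are from RefSeq in build GRCm38.p6, 5′ to 3′ on the strand of the gene, and capitals mark a match to the core motif CTTTGA of the Wnt effectors TCF and LEF, here read on the opposite strand as TCAAAG.
T, chr17:8434173-8434422, plus strand: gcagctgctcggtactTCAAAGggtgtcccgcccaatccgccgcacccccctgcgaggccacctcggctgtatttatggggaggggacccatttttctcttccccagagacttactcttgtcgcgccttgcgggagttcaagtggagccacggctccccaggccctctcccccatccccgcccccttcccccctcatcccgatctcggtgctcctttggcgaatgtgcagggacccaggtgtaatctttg
Eomes, chr9:118477939-118478188, plus strand: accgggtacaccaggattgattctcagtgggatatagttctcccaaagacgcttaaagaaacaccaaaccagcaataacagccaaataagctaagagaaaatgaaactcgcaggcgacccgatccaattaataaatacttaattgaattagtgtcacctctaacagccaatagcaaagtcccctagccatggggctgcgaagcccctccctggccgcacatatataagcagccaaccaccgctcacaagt
Tbx6, chr7:126781233-126781482, plus strand: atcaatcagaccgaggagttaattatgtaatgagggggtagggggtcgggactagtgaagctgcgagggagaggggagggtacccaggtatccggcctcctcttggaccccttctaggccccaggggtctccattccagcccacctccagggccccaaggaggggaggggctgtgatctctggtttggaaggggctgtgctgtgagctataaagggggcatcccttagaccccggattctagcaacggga

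The table of promoters held 7 of the 10 members, with 2 start sites for Tbx1. Among these 8 windows, CTTTGA on either strand was found only in that of T, at 234 to 229 bases before the start; 13.8% of all 32851 windows of this length hold it. The T-box binding motif AGGTGTGA was found in 0 of the 8 windows on either strand, against 1.12% of all windows. Its shorter form GGTGTGA, which lies within it, was also found in 0 of the 8, against 3.33% of all. CTTTGA was chosen after values of these data were seen. The windows of T, Eomes and Tbx6 had a GC content of 62.8%, 46.4% and 59.6% with 14, 8 and 6 CpG dinucleotides, and the median window had 52.4% GC and 6 CpG.

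Eomes, a streak factor that starts the cardiac and endodermal programmes, had processed signals of 124 and 199 in Venus-positive cells, against 4609 and 3856.5 in Venus-negative cells. Signals are the background-subtracted brightness of a spot, before scaling between arrays. Both Venus-negative arrays were far brighter, and all 4 were well above background. Scaled to each array's 75th percentile, the log2 signal was -1.40 ± 0.56 in Venus-positive and 3.51 ± 0.05 in Venus-negative cells (SD, n = 2 each). Eomes thus fell 30.0-fold (log2 change -4.91 ± 0.30 SE, 95% interval -5.77 to -4.04, adjusted p = 0.0342 in limma). Only 10 of all features had a lower log2 change. The second Eomes probe read 27.0 and 40.7 in Venus-positive cells against 692 and 547 in Venus-negative cells. It gave a log2 change of -4.37 ± 0.27 SE (adjusted p = 0.0305 in limma with every probe tested), so the call did not rest on a single probe. The second probe was dim in Venus-positive cells, and with normexp its log2 change was -2.85, so its size is uncertain. The call was lost without any 1 of the 4 arrays (log2 changes between -5.30 and -4.51, adjusted p between 0.127 and 0.161 in limma) and in a fit without the filter on dim probes (adjusted p = 0.143).

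Tbx6, which directs streak cells to a paraxial rather than a neural fate, read 897 and 381 in Venus-positive cells and 4635 and 3404 in Venus-negative cells. Both Venus-positive arrays were lower, and they differed from each other by a factor of 2.19 after scaling. The log2 change was -2.92 ± 0.43 SE (95% interval -4.14 to -1.70), and its adjusted p of 0.0687 in limma missed the threshold. The second Tbx6 probe read 184 and 96.9 in Venus-positive cells against 819 and 573 in Venus-negative cells, with a log2 change of -2.52 ± 0.33 SE (adjusted p = 0.0566 in limma). The brighter probe passed with arrays centred on the median (adjusted p = 0.0484), with normexp background correction (adjusted p = 0.0249, log2 change -2.72) and with a variance trend (adjusted p = 0.0252).

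T itself, the founding member and a marker of streak and axial mesoderm, stayed bright in both fractions. It read 5724 and 3764 in Venus-positive cells and 8493 and 5631 in Venus-negative cells. The unscaled signals of the fractions overlapped; after scaling they did not, with log2 signals of 3.49 ± 0.35 in Venus-positive and 4.22 ± 0.29 in Venus-negative cells (SD, n = 2 each). The log2 change was -0.73 ± 0.25 SE (95% interval -1.44 to -0.02), a factor of 1.66, and did not pass in limma (adjusted p = 0.202). Of all features, 6.62% had a lower log2 change than T.

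Whether Eomes and T changed to a different extent was examined within arrays, as the log2 signal of Eomes minus that of T. This difference was -5.53 and -4.24 in Venus-positive arrays against -0.88 and -0.55 in Venus-negative arrays. The fractions did not overlap and their means differed by -4.17, so Eomes was 18.0-fold lower relative to T in the Venus-positive cells. The two-sided exact permutation test gave p = 0.333, which is the smallest that 2 against 2 arrays allow.

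**Figure D1:**
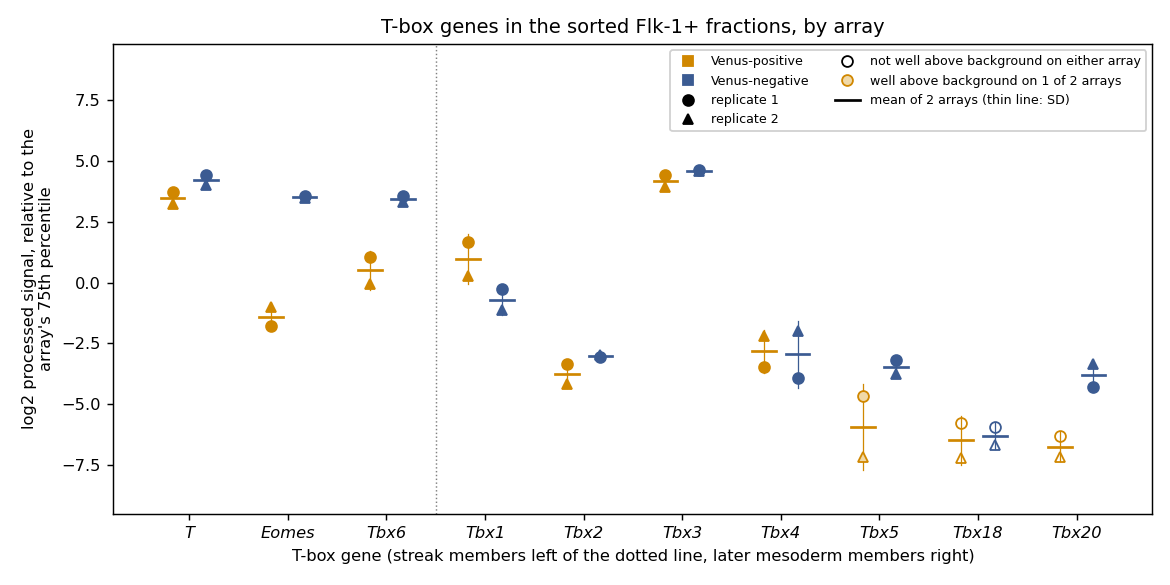
Log2 processed signal of each T-box gene relative to the array's 75th percentile (vertical axis), by gene (horizontal axis), with Venus-positive left of Venus-negative. Symbols are single arrays, thick lines means of 2 arrays and thin lines SD; heights of different genes are not comparable, since probes differ. Eomes and Tbx6 lie apart between fractions, T and Tbx3 lie close, Tbx1 is higher in Venus-positive cells, and Tbx18 is dim on all 4 arrays.

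Among the later members, Tbx1 stood alone in having both Venus-positive arrays above both Venus-negative arrays. Tbx1 is a regulator of pharyngeal and head mesoderm and of the outflow part of the heart. It read 1378 and 475 in Venus-positive cells and 329 and 158 in Venus-negative cells. In both fractions the replicates differed widely, by factors of 2.70 (Venus-positive) and 1.83 (Venus-negative) after scaling. The log2 change was 1.67 ± 0.61 SE (95% interval -0.08 to 3.41), a factor of 3.18, and did not pass in limma (adjusted p = 0.225). Without Venus-positive replicate 1, the brightest array, it was 0.95, and 99.3% of all features had a lower change than the 1.67 of the full data.

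Tbx20 and Tbx5, cardiac T-box factors, were dim and lay lower in the Venus-positive cells. Tbx20, which promotes growth and identity of heart muscle and valves, read 5.40 and 2.77 in Venus-positive cells, neither well above background, and 20.2 and 34.1 in Venus-negative cells. The log2 change of -2.92 did not pass the threshold (adjusted p = 0.0775 in limma). With background as a limit, the fall in Venus-positive cells had an approximate lower bound of 2.44-fold, without an error term. This bound sets the Venus-negative mean against the lowest signal that counts as well above background on each Venus-positive array, or the probe's own signal where higher. The other Tbx20 probes, matched to different transcripts of the gene, read 3.40 and 8.93 in Venus-positive against 15.8 and 38.3 in Venus-negative cells, and 2.63 and 5.65 in Venus-positive against 15.4 and 26.4 in Venus-negative cells. All 3 Tbx20 probes were thus lower on both Venus-positive arrays, where none was well above background. The probe at 15.8 and 38.3 was well above background on only 1 Venus-negative array and was not tested. The other 2 entered the test through the Venus-negative arrays alone, so the filter favoured a lower value. The bound was 2.28-fold for the untested probe and 1.87-fold for the probe at 15.4 and 26.4. The brightest tested probe, which stood for the gene, passed only with a variance trend (adjusted p = 0.0426 in limma). With normexp its log2 change was -0.57, smaller in size than its bound of -1.29.

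Tbx5, needed for the heart chambers and the forelimb, read 16.7 and 2.77 in Venus-positive cells and 43.6 and 25.4 in Venus-negative cells. Of the Venus-positive arrays, 1 of 2 was well above background. The log2 change of -2.45 ± 0.93 SE had an interval from -5.09 to 0.20 (adjusted p = 0.235 in limma). Without Venus-positive replicate 2 it was -1.20, and with normexp -0.61, where it passed (adjusted p = 0.0458). The summed scaled signal of 7 cardiac muscle markers was 2.23 and 1.54 in Venus-positive against 4.47 and 4.51 in Venus-negative cells, in multiples of the 75th percentile. Of these markers 6 were tested, Myl7 alone was called lower and 0 higher in limma, against 1.36% and 0.777% of all features. At an unadjusted p under 0.05, 4 were lower and 0 higher, against 11.4% and 12.3% of all features. Tnnt2 had the opposite sign (log2 change 0.89 ± 0.73 SE, adjusted p = 0.521 in limma), and Ttn was dim on all 4 arrays. Of the 6 markers, 3 entered the test through the Venus-negative arrays alone. In sorted populations fewer cells of a type and less RNA per cell cannot be told apart, and the part of these cells in the Tbx5 and Tbx20 values was not tested.

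Tbx2 and Tbx3 are closely related repressors, known from limb, heart conduction tissue and proliferating progenitors. In the RefSeq table each lies beside another member, Tbx2 beside Tbx4 on chromosome 11 and Tbx3 beside Tbx5 on chromosome 5. Tbx3 was bright in both fractions, reading 9108 and 6089.9 in Venus-positive cells and 9633 and 8361 in Venus-negative cells. Scaled log2 signals of Tbx3 were 4.17 ± 0.33 in Venus-positive and 4.60 ± 0.01 in Venus-negative cells (SD, n = 2 each). The log2 change was -0.43 ± 0.20 SE (95% interval -0.98 to 0.13, adjusted p = 0.292 in limma), and 13.1% of all features had a lower one.

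Tbx2 was dim, at 41.8 and 22.1 in Venus-positive cells and 47.6 and 43.8 in Venus-negative cells. Its log2 change of -0.74 ± 0.31 SE did not pass (95% interval -1.62 to 0.13, adjusted p = 0.262 in limma). Tbx4, a hindlimb and lung mesoderm factor also active in the allantois, read 39.2 and 86.5 in Venus-positive cells and 26.0 and 87.8 in Venus-negative cells. Here the fractions overlapped, replicate 2 being the brighter array in both. The log2 change of Tbx4 was 0.13 ± 0.84 SE (95% interval -2.27 to 2.52, adjusted p = 0.944 in limma), so a change of several fold either way was not detectable. Its sign turned when Venus-positive replicate 2 was left out (-0.50), when Venus-negative replicate 1 was left out (-0.85), and with normexp (-0.018). Tbx18, known from the epicardium, sinus venosus and somites, read 7.82 and 2.72 in Venus-positive cells and 6.45 and 3.41 in Venus-negative cells. It was not well above background on any array, so no fold is given.

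**Figure D2:**
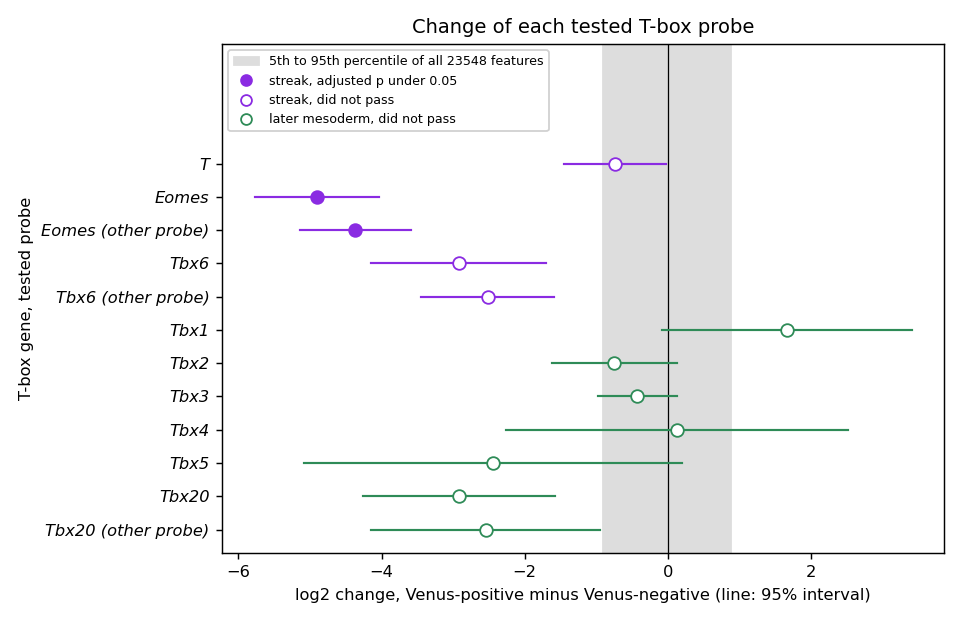
Log2 change, Venus-positive minus Venus-negative (horizontal axis), of the 12 tested T-box probes (vertical axis), with 95% intervals as lines; filled points passed an adjusted p under 0.05. The grey band spans the 5th to 95th percentile of all features, from -0.90 to 0.88. Both Eomes probes are filled, the probes of Tbx6 lie left of the band, the point of T lies inside it, and that of Tbx1 lies right of it.

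Whether the position of an array on the slide bears on these values was not tested. All 4 arrays were on 1 slide; both Venus-positive arrays were in column 3 and both Venus-negative arrays in column 2, so column and fraction cannot be told apart. The slide row coincided with the replicate number. Of the 9 tested members, 5 (T, Tbx6, Tbx1, Tbx3 and Tbx5) were brighter after scaling in replicate 1 than in replicate 2 of both fractions, while Tbx4 was the reverse. Over all 23548 features, same-numbered arrays also deviated together from their group means (r = 0.414). Hoxb6, the reporter gene, read 1712 and 1875 in Venus-positive cells against 925 and 685 in Venus-negative cells, with an adjusted p of 0.0717 in limma. Kdr was bright on all arrays. Of 9 Flk-1+ mesoderm and endothelial markers, 9 were well above background on all 4 arrays and had a positive log2 change. In limma 3 of them were called higher (Tek, Sox18 and Esam), against 0.777% of all features. The summed scaled signal of the 9 markers was 231 and 270.2 in Venus-positive against 99.7 and 119 in Venus-negative cells.

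The fractions were also compared for markers of other cells that the gate could hold. Over all features 1.36% were called lower and 0.777% higher in limma, with 11.4% and 12.3% at an unadjusted p under 0.05. For 14 OP9 stromal and fibroblast markers, 13 of them tested, the sum was 28.1 and 17.6 in Venus-positive against 37.5 and 32.5 in Venus-negative cells. None was called in limma, and at an unadjusted p under 0.05, 2 were lower and 0 higher. Markers of undifferentiated ES cells summed to 20.1 and 14.6 in Venus-positive against 19.5 and 16.3 in Venus-negative cells, and 1 of 7 was called lower, the streak-associated Nodal co-receptor Tdgf1. Endoderm markers summed to 7.34 and 9.41 in Venus-positive against 3.37 and 4.335 in Venus-negative cells. Of the 7, 3 were tested and 0 called in limma (2 lower and 1 higher at an unadjusted p under 0.05), with Apoa1 dim on all arrays. Only Sox17 had a positive log2 change (1.35) and the median of the 3 was -0.80, so the tested endoderm markers did not rise together. Blood markers summed to 49.2 and 55.5 in Venus-positive against 51.8 and 107 in Venus-negative cells; 7 of 8 were tested and 0 called in limma (1 lower at an unadjusted p under 0.05), with Ptprc dim on all arrays. Their part in the T-box values was not tested.

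The other 7 T-box genes of the mouse act mainly outside early mesoderm. Of these, 6 were tested and 0 were called in limma, with 0 at an unadjusted p under 0.05. Their log2 changes lay between -0.83 and 0.33. The lowest was that of Tbx21, which entered the test through the Venus-negative arrays alone. Apart from Mga, the tested genes read at most 57.9 on any array, which limits what their values show. Mga, a large factor that joins a T-box to a Myc-type domain and is known from pluripotent cells, read 277 and 224 in Venus-positive cells and 230.3 and 185 in Venus-negative cells. Tbx19, a pituitary factor, was dim on all arrays.

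Genes known as targets or partners of the streak factors included 8 that fell with Eomes. Of 20 listed genes 18 were tested, 8 fell and 0 rose in limma, against 1.36% and 0.777% of all features. At an unadjusted p under 0.05, 13 were lower and 0 higher, against 11.4% and 12.3% of all features, and 18 of 18 log2 changes were negative. These counts include Mesp1 and Mesp2, which entered the test through the Venus-negative arrays alone, so the filter itself favoured a lower value for these 2. Their median log2 change was -2.72, or -2.35 with dim genes at their bound, against 0.0029 over all features. The list was drawn up with earlier results of these data known, so its direction is not independent evidence. Mesp1, the cardiovascular mesoderm regulator activated by Eomes, read 9.26 and 14.3 in Venus-positive cells against 647 and 911 in Venus-negative cells. Both Venus-positive arrays were dim, and the array at 14.3 was well above background while that at 9.26 was not (log2 change -6.22 ± 0.38 SE, adjusted p = 0.0342 in limma, or -3.78 with normexp). Other genes that fell were the streak homeobox genes Gsc (log2 change -5.33), Mixl1 (-5.15) and Lhx1 (-4.64), the ligands Wnt3 (-4.16) and Nodal (-3.59), the Notch ligand Dll3 (-3.91) and Msgn1 (-3.37), a presomitic regulator that acts with Tbx6. In Venus-positive cells Gsc, Mixl1, Lhx1 and Msgn1 were dim, reading between 16.0 and 43.8, so the size of their falls is uncertain. With normexp the changes were smaller in size: Gsc -3.63, Mixl1 -3.58, Lhx1 -2.69, Wnt3 -3.16, Nodal -3.21, Dll3 -3.37 and Msgn1 -1.93.

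The other 10 tested genes of the list did not pass, with log2 changes between -3.03 and -0.23. The lowest of them was Fgf8, a growth factor of the streak, which read 456 and 226 in Venus-positive against 3089 and 1781 in Venus-negative cells (log2 change -3.03 ± 0.41 SE, adjusted p = 0.0615 in limma). Mesp2, a presomitic relative of Mesp1, was not well above background on either Venus-positive array. The Notch ligand Dll1 (-1.68 ± 0.23 SE), Snai1 (-1.63 ± 0.28 SE), a repressor active when streak cells leave the epithelium, and Foxa2 (-1.19 ± 0.27 SE), a factor of endoderm and axial mesoderm, had adjusted p-values of 0.0619, 0.0846 and 0.122 in limma. Evx1, a streak homeobox gene, read 7514 and 3241 in Venus-positive against 9761 and 6741 in Venus-negative cells (log2 change -0.87 ± 0.43 SE, adjusted p = 0.317 in limma). Sp5, a Wnt-responsive zinc finger factor, had a log2 change of -0.68 ± 0.35 SE (adjusted p = 0.333 in limma). Fgf8, Mesp2, Dll1, Snai1, Foxa2, Evx1 and Sp5 were named after their values were seen. Wnt3a, a ligand that maintains T, was dim on all arrays.

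Among 22 targets and partners of the later members, 20 were tested, 2 fell and 0 rose in limma, against 1.36% and 0.777% of all features, and the median log2 change was -0.81. At an unadjusted p under 0.05, 10 were lower and 3 higher, against 11.4% and 12.3% of all features. Among the 10 is Nppa, a heart muscle hormone gene that entered the test through the Venus-negative arrays alone. Gata4, a partner of Tbx5 and Tbx20 in heart development, read 54.4 and 83.7 in Venus-positive cells against 686 and 804 in Venus-negative cells. It fell 12.3-fold (log2 change -3.62 ± 0.32 SE, adjusted p = 0.0395 in limma). Aldh1a2, the enzyme that makes retinoic acid in trunk mesoderm, read 220.1 and 157 in Venus-positive against 1822 and 1402 in Venus-negative cells. It fell 9.61-fold (log2 change -3.26 ± 0.18 SE, adjusted p = 0.0342 in limma).

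Genes with the highest log2 changes of that list did not pass in the fit reported here. Ripply3, a corepressor that binds Tbx1, read 199.6 and 260.4 in Venus-positive against 56.1 and 63.1 in Venus-negative cells, with no overlap of the fractions. Its log2 change of 1.78 ± 0.24 SE missed the threshold in limma (adjusted p = 0.0618), and passed with arrays centred on the median (adjusted p = 0.0480) and with a variance trend (adjusted p = 0.0277). Wt1 (1.55 ± 0.44 SE), a factor of epicardium and kidney precursors, Mef2c (1.27 ± 0.43 SE), a muscle and vessel factor, and Gata5 (0.23 ± 0.15 SE) had adjusted p-values of 0.157, 0.197 and 0.442 in limma. Smarcd3 (-1.79 ± 0.24 SE), a chromatin remodelling subunit of heart precursors, and Hand1 (-1.53 ± 0.43 SE), a lateral and extraembryonic mesoderm factor, did not pass either (adjusted p = 0.0618 and 0.155 in limma); both were named after their values were seen.

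**Figure D3:**
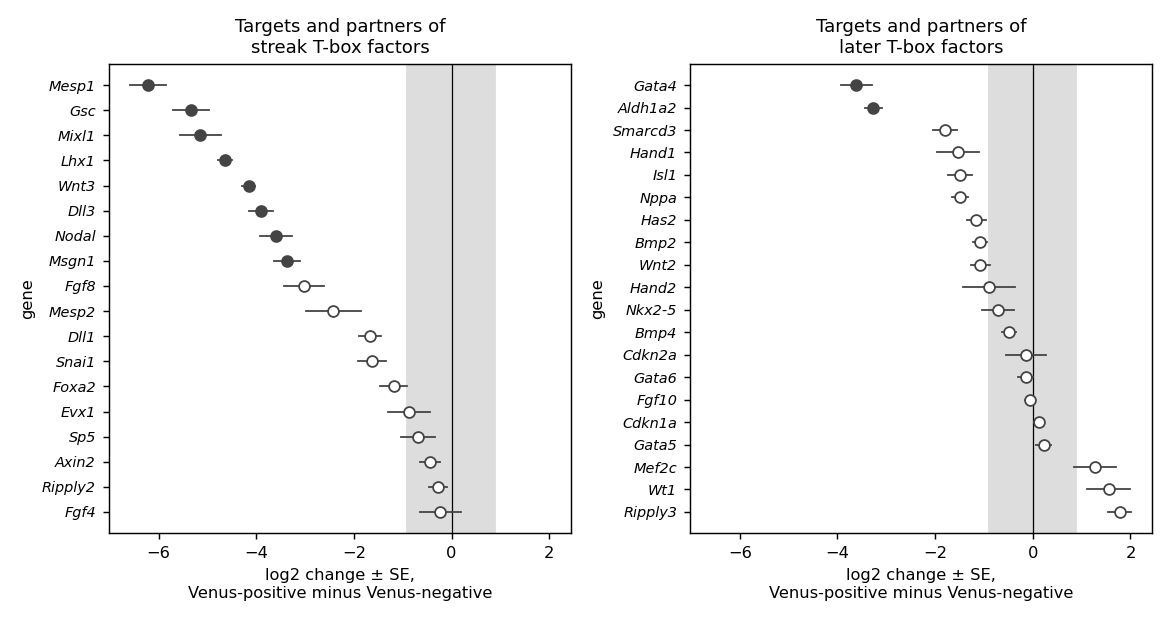
Log2 change ± SE, Venus-positive minus Venus-negative (horizontal axis), of tested targets and partners of the streak factors (left, 18 genes) and of the later factors (right, 20 genes); filled points passed an adjusted p under 0.05 and the grey band is the 5th to 95th percentile of all features. The 8 filled genes on the left lie between -6.22 and -3.37, and the 2 on the right are Gata4 and Aldh1a2.

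Genes whose 4 scaled values most resembled those of a member were ranked by Euclidean distance after centring each gene on its mean, over 13229 named genes well above background on all 4 arrays. Closest to Eomes were Cfc1 (distance 0.28), Six2 (0.41) and Tdgf1 (0.43), and these were the 3 genes within a distance of 0.5. Closest to Tbx6 were Fgf8 (0.31), Cabp1 (0.35) and Amhr2 (0.37), with 12 genes within 0.5. Closest to Tbx1 were Kcnj10 (0.24), Trpc6 (0.30) and Zap70 (0.31), with 9 genes within 0.5. T had 734 genes within that distance and Tbx3 3358, so their nearest genes (Epb41l4b, Elavl2 and Hoxa2 for T, and Anxa1, Greb1 and Gzmm for Tbx3) are among many like them. Nearest to Tbx2 were Psd4, Arhgap4 and Gdf11, with 237 genes within 0.5, and nearest to Tbx4 were Cyyr1, Ifih1 and Retn, with 17. With 4 arrays this is a description of profile shape only.

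**Figure D4:**
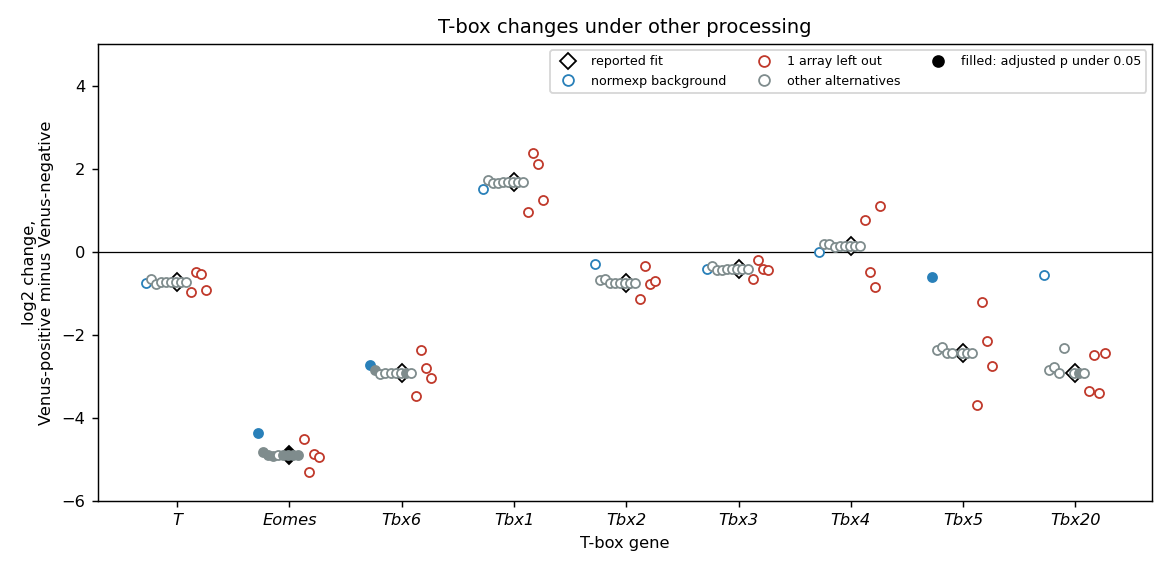
Log2 change, Venus-positive minus Venus-negative (vertical axis), of each tested T-box gene (horizontal axis) in the reported fit (diamond) and under 13 alternatives (circles); filled symbols passed an adjusted p under 0.05. Red circles leave out 1 array and blue circles use normexp, which draws dim genes such as Tbx5 and Tbx20 towards 0. Tbx4 alone crosses 0.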

How the data were processed

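Per the file headers, the deposited scanner tables hold intensity values from Agilent Feature Extraction 10.10.1.1, the processed signal of each spot after the software's own background correction. The authors' deposited value table has the same intensity values times 1 constant per array (1.98 to 2.44; medians 41.0, 38.1, 41.0 and 42.3 for the Venus-positive then Venus-negative arrays); genes are not centred, and how the constants were set is not given in the sources used here. Between 50.7% and 53.0% of spots were well above background per array.

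Control and outlier spots were left out, log2 signals were centred on each array's 75th percentile (signal 429 and 398 for Venus-positive, 396 and 347 for Venus-negative arrays), and replicate spots were averaged. A probe was tested if both arrays of at least 1 group were well above background, and a gene's brightest tested probe stood for it. Accessions were matched to RefSeq symbols (GRCm38.p6; 27235 of 55681 probes). Differences were tested in R 4.3.3 with limma 3.58.1 (2 residual and 1.80 prior degrees of freedom), checked on simulated data; SE is moderated. Rules named all members, the passing and largest changes of the target list, and the 3 nearest patterns. The members and lists were chosen with earlier results of these data known. Normexp used the median spot signal, since no mean was in the tables. Alternatives were normexp, other scalings, filters, probe choice, a variance trend, a replicate block and leaving out arrays.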

Additional observations from a re-analysis of the deposited data

How the results depend on the processing

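In 115 refits of single members, 102 kept the direction and the side of the threshold, 5 lost the call of Eomes, 5 gained a call and 3 turned the sign of Tbx4 (-0.018 with normexp, -0.50 when Venus-positive replicate 2 was left out, -0.85 for Venus-negative replicate 1; -0.85 to 1.097 over all arrays left out in turn). The count of members called lower was 1; it was 3 with normexp, 2 with arrays centred on the median, 3 with a variance trend and 0 without a filter on dim probes. Target and partner genes called lower numbered 10, against 17 with normexp, 18 with a variance trend and 0 without the filter; those called higher numbered 0, against 1 with median centring and 1 with a variance trend. Features called were 320 lower and 183 higher, against 694 and 591 with normexp, 351 higher with median centring, 923 and 731 with a variance trend, and 0 and 0 without the filter, where 3641 were lower and 2899 higher at an unadjusted p under 0.05. Leaving out any 1 array left 0 members, 0 target genes and 0 features called in limma, with 1720 to 2161 features lower and 1687 to 2510 higher at an unadjusted p under 0.05. The labels do not say that a replicate number marks a shared culture; same-numbered arrays deviated together over all features (r = 0.414, 2 pairs). With the replicate block 544 features were lower and 390 higher and 2 target genes were higher (Ripply3 and Mef2c, adjusted p = 0.0429 and 0.0469 in limma); Eomes kept its call (adjusted p = 0.0429 in limma). The fall of Eomes relative to T kept its direction with normexp, the other scalings, the value table and each array left out. The cause of these shifts was not tested. Dim genes (Tbx2, Tbx5, Tbx18 and Tbx20) lie near background, which limits what their values show. The same holds for Tbx4 on replicate 1, which read 39.2 in Venus-positive and 26.0 in Venus-negative cells.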
